A study of Drosophila melanogaster with 24 samples.

Results

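The odorant (Or), gustatory (Gr) and ionotropic (Ir) receptor genes of Drosophila melanogaster were examined for peaks of CLOCK (CLK) and CYCLE (CYC), bHLH-PAS proteins that act as a pair to switch on genes of the circadian clock. Members were all protein-coding genes of the dm6 RefSeq annotation whose symbol begins with Or, Gr or Ir, followed by a number and a small letter. This gave 179 members out of 13922 protein-coding genes on the 6 chromosome arms, made up of 59 Or, 60 Gr and 60 Ir genes. Orco, the obligate co-receptor of the Or proteins, carries no number and was therefore not a member. A member was counted as having a peak when the midpoint of the peak lay in the gene or within 1 kb of it.

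The peaks came from chromatin immunoprecipitation and sequencing (ChIP-seq) of heads, testes and ovaries, in which an anti-GFP antibody was used. Each protein and tissue had 2 GFP libraries and 2 input libraries, 24 libraries in all, from 200 heads or 200 pairs of gonads per replicate taken at ZT 10 h. The sources used here do not give the strain, genotype or age of the flies or the sex behind the head samples, and name no library of untagged flies. There were 1016 CLK and 394 CYC peaks in head, 2491 CLK and 1583 CYC peaks in testis, and 351 CLK and 1975 CYC peaks in ovary in the deposited lists. Each list stood for both replicates together and read depth was unknown, so no replicate error and no test between lists could be given.

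Or proteins are ligand-gated cation channels that form complexes with Orco in olfactory neurons of the antenna and maxillary palp. Gr proteins are related channels, found mainly in taste neurons, that detect sugars, bitter compounds and, in the antenna, carbon dioxide. Ir proteins derive from ionotropic glutamate receptors and serve smell, taste, temperature and humidity sensing, usually with the broad co-receptors Ir25a, Ir8a or Ir76b. Most of these receptors are transcribed in small sets of sensory neurons on the head and body. In fly olfactory neurons the response to odours is known to follow a daily rhythm that needs the clock. All samples were whole organs, so binding in fewer cells and weaker binding in each cell cannot be told apart.

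Most receptor genes with a peak had it in testis, 13 of 64 had an ovary peak and 2 a head peak. In testis, 37 of 179 members had a CLK peak (20.7%, 95% Clopper-Pearson interval 15.0 to 27.3%), beside 17.8% of all protein-coding genes. For CYC in testis, 27 members had a peak (15.1%, 10.2 to 21.2%), beside 10.1% of all genes. In ovary, 2 members had a CLK peak (1.12%, 0.136 to 3.98%) and 11 a CYC peak (6.15%, 3.11 to 10.7%), beside 1.73% and 11.1% of all genes. In head, 2 members had a CLK peak (1.12%, 0.136 to 3.98%), beside 9.07% of all genes. No member had a CYC peak in head (interval 0 to 2.04%, while the limit of 3 counts allows a share of up to 1.68%), beside 4.13% of all genes. The intervals cover the counting of genes only and take neighbours as independent, which they are not where receptor genes lie in clusters.

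Counted over the 6 lists, 64 members had at least 1 peak (35.8%), beside 38.9% of all genes, and 115 had none. Of the 64, 59 had a testis peak of either protein (33.0% of members), beside 24.3% of all genes. The remaining 5 genes were Gr28a, called in head, and Or47a, Gr39a, Ir7f and Ir7g, called in ovary. Peaks of both proteins in testis were found at 5 members (2.79%), beside 3.68% of all genes. Members less than 5 kb apart formed 128 loci, of which 29 (22.7%) had a CLK and 24 (18.8%) a CYC peak in testis. Loci were not formed over all genes, so these shares cannot be set beside the shares of single genes. Or10a and Gr10a are annotated with the same span, as are Gr64b and Gr64c, and none of these 4 had a peak.

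**Figure D1:**
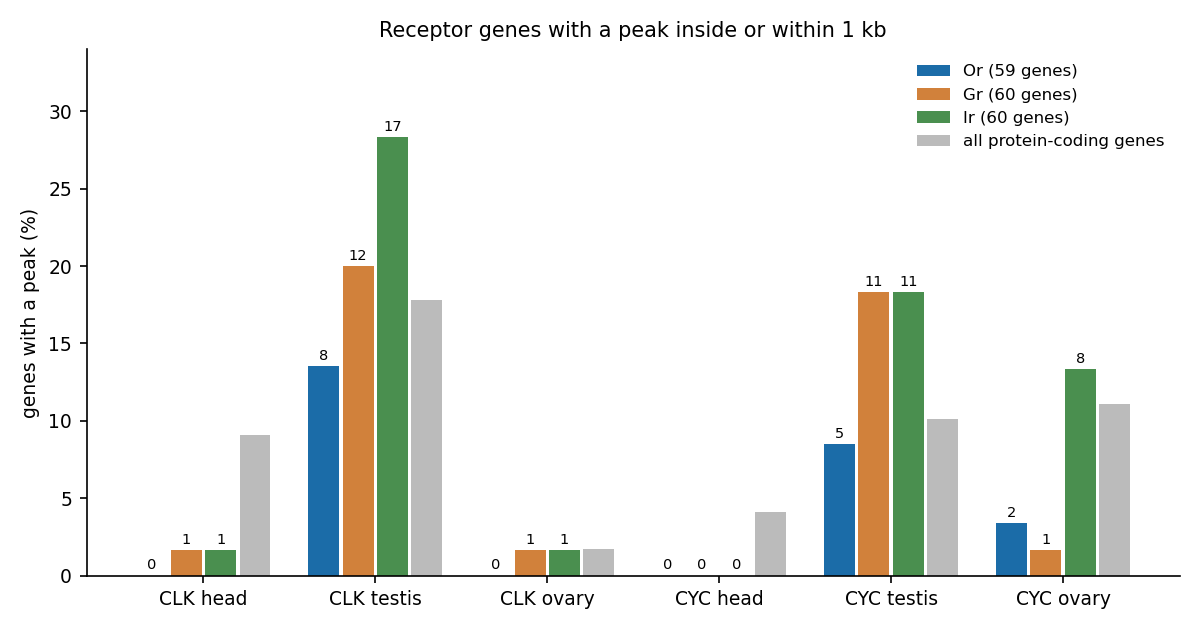
Percent of Or, Gr and Ir genes, and of all protein-coding genes, with a peak midpoint in the gene or within 1 kb, for each protein and tissue; numbers above bars count the receptor genes. Ir genes had the highest share of the 3 families in the CLK testis list, at 17 of 60, and no Or gene had a head peak.

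The families differed in their counts. For CLK in testis, 17 Ir genes (28.3%, 17.5 to 41.4%), 12 Gr genes (20.0%, 10.8 to 32.3%) and 8 Or genes (13.6%, 6.04 to 25.0%) had a peak. For CYC in testis the counts were 11 Ir genes (18.3%, 9.52 to 30.4%), 11 Gr genes (18.3%, the same interval) and 5 Or genes (8.47%, 2.81 to 18.7%). In both testis lists the Ir and Gr shares lay above the share of all genes and the Or share below it. The intervals of the families overlapped, and each of them covered the share of all genes, 17.8% for CLK and 10.1% for CYC. For CYC in ovary, 8 Ir genes (13.3%, 5.94 to 24.6%) had a peak, beside 11.1% of all genes, a share inside that interval. There were 2 Or genes (3.39%, 0.413 to 11.7%) and 1 Gr gene (1.67%, 0.0422 to 8.94%). Among these Ir genes, Ir75a and Ir75b, Ir94b and Ir94c, and Ir7f and Ir7g were each counted from the same peak. Ir genes were the longest, with a median of 1908 bp, against 1462 bp for Or genes and 1397 bp for Gr genes.

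Receptor genes are shorter than most genes, and a longer gene holds more room for peaks. The median length was 1691 bp for members and 2163 bp for all protein-coding genes. Among genes of 1 to 2 kb, 29 of 127 members (22.8%) had a CLK peak in testis, beside 14.1% of all genes of that length. For CYC in testis, 19 of the 127 (15.0%) had a peak, beside 7.32%. Among genes of 2 to 3 kb the shares were 20.0% of 30 members for CLK, beside 17.5%, and 13.3% for CYC, beside 8.68%. Among genes of 3 kb or longer, 2 of 22 members (9.09%) had a CLK peak in testis, beside 23.8%, and 4 (18.2%) a CYC peak, beside 14.4%. For CLK in testis the share of members was thus the higher among the shorter genes and the lower among the longest. In head, 1 of the 127 members of 1 to 2 kb had a CLK peak (0.787%), beside 5.81% of genes of that length, and none had a CYC peak, beside 3.62%. For CYC in ovary the share of members changed side with length. It was 3.94% at 1 to 2 kb, beside 6.33%, and 13.3% at 2 to 3 kb (4 of 30), beside 6.63%. At 3 kb or longer it was 9.09%, beside 17.2%.

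**Figure D2:**
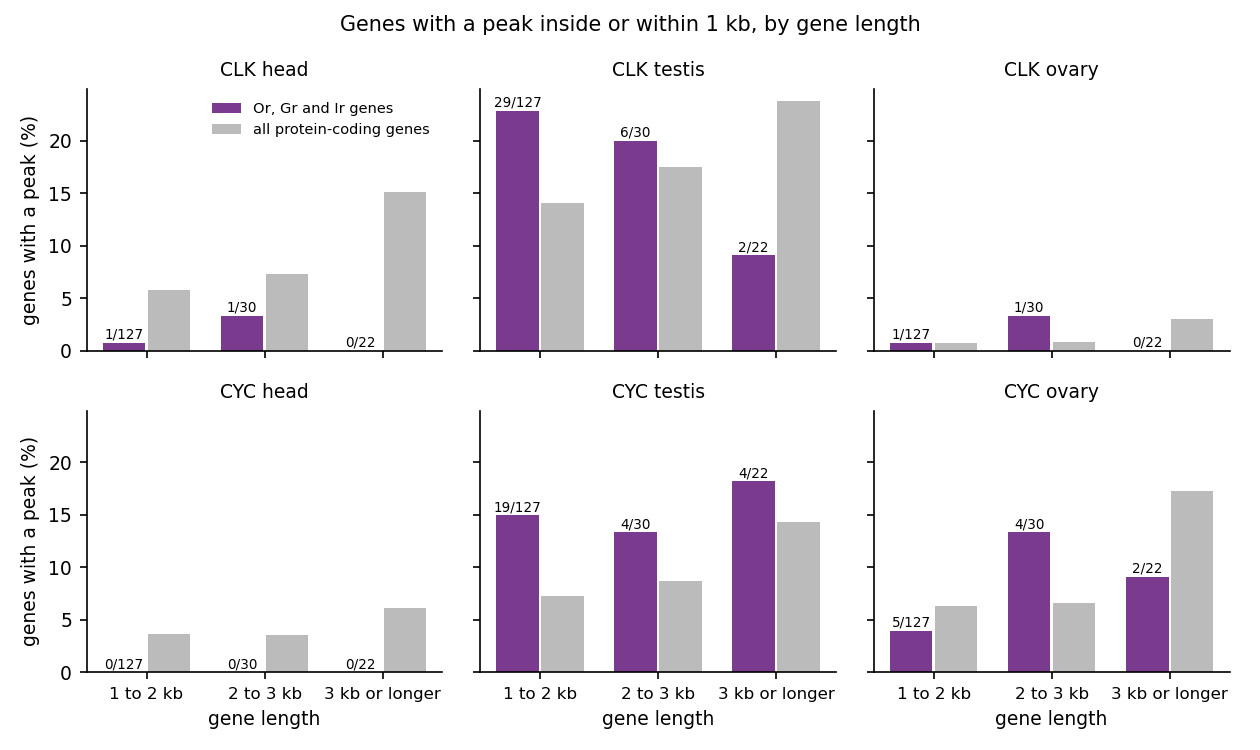
Percent of Or, Gr and Ir genes and of all protein-coding genes with a peak in or within 1 kb, for 3 classes of gene length and each protein and tissue; labels give members with a peak over members in the class. In testis the bar of members stood above that of all genes at 1 to 2 kb for CLK (29 of 127) and CYC (19 of 127), and in head it stood below.

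Per length of sequence, the windows of the members held 46.7 CLK and 42.7 CYC peaks per Mb in testis, beside 21.2 and 12.1 per Mb over the windows of all protein-coding genes. In ovary the values were 2.67 CLK and 13.3 CYC peaks per Mb at members, beside 2.41 and 15.1 over all genes. In head they were 2.67 CLK peaks and 0 CYC peaks per Mb at members, beside 9.59 and 3.85. By family, Gr windows held 58.4 CLK and 53.1 CYC peaks per Mb in testis, Ir windows 44.3 of each and Or windows 38.8 and 29.1. The order of Gr and Ir genes was thus the reverse of that by CLK share, with 0.188 Mb of Gr windows and 0.361 Mb of Ir windows. This order rests on 2 long Ir genes, Ir41a (104437 bp, 1 CLK testis peak) and Ir40a (24851 bp, 2 CYC testis peaks). Without these 2 genes, the windows of all members held 55.1 CLK and 48.7 CYC peaks per Mb in testis. Densities also carry the difference in length between members and all genes.

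The testis peaks were unevenly spread over the chromosome arms. None of the 25 members on X had a peak of CLK or CYC in testis, and the testis lists held only 34 CLK and 56 CYC peaks on X, with 0.546% and 0.819% of X genes near them. Without X, 37 of 154 members (24.0%) had a CLK testis peak, beside 21.0% of genes, and 27 (17.5%) a CYC testis peak, beside 11.9%. On 2R, 19 of 46 members (41.3%) had a CLK testis peak, beside 21.5% of the genes of that arm. On the other autosomal arms the CLK shares of members, from 14.3% on 3R to 19.4% on 2L, lay below those of all genes, from 20.1% to 21.8%. The CYC share was highest on 3R, where 12 of 42 members (28.6%) had a peak, beside 12.0% of genes. The share of members thus lay above that of all genes on 2R alone for CLK, and mostly on 3R for CYC. Over all arms, the interval of the CLK share of members, 15.0 to 27.3%, covered the 17.8% of all genes. The split by arm was not among the planned comparisons.

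**Figure D3:**
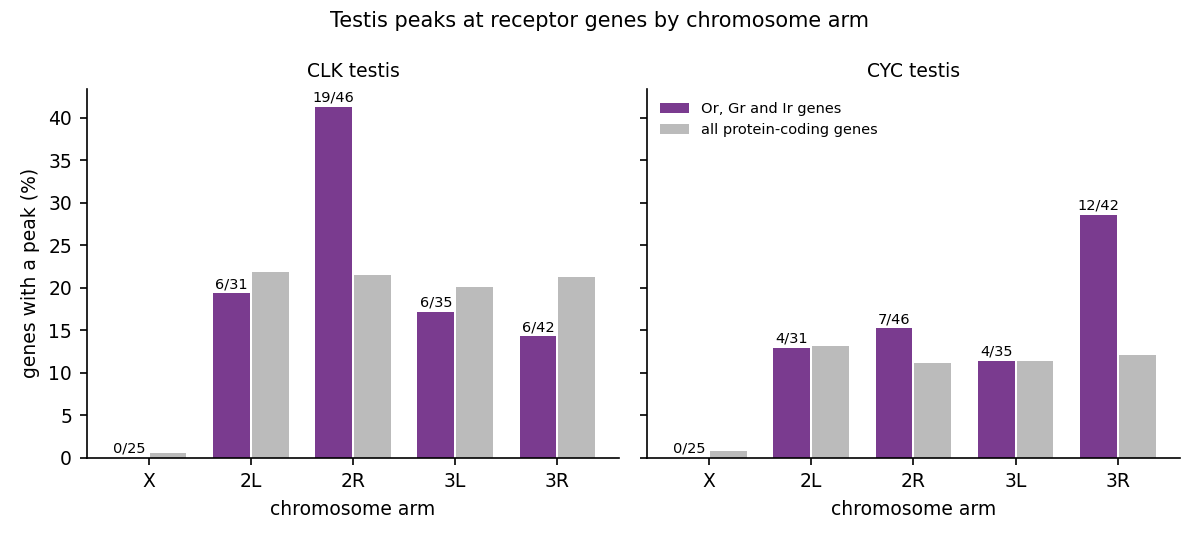
Percent of Or, Gr and Ir genes and of all protein-coding genes with a testis peak of CLK (left) or CYC (right), by chromosome arm; labels give members with a peak over members on the arm. CLK stood out on 2R, with 19 of 46 members, CYC on 3R, with 12 of 42, and X had none of 25.

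In the tissue that carries most of the fly's smell and taste organs, only 2 peaks were found at receptor genes. A CLK peak of 264 bp lay below Gr28a (2L 7451895 to 7452159), with its midpoint 493 bp from the lower end of the gene. Gr28a is a taste receptor gene next to Gr28b, and that end was the nearest gene end to the peak. The other CLK peak, of 267 bp, lay above Ir75c (3L 17823097 to 17823364). Its midpoint was 102.5 bp from an end of Grd, a gene of the GABA-receptor family, which was nearer than Ir75c. Both peaks were narrower than the median of the CLK head list, 285 bp, and no peak of CYC met either.

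Among Or genes, 13 of 59 had a peak in at least 1 list (22.0%), beside 38.9% of all genes. The widest peak at any member lay in Or65c, 1 of 3 neighbouring genes (Or65a, Or65b and Or65c) expressed together in pheromone-sensing neurons of the antenna. This CLK testis peak spanned 767 bp (3L 6328164 to 6328931), took rank 53 by width among 2491, and lay inside the gene, while Or65a and Or65b had none. The other CLK testis peaks at Or genes were 231 to 356 bp wide. Or56a, the receptor for geosmin, held 1 inside the gene (2R 19770421 to 19770652), and Or59a, a larval receptor, likewise (2R 23440433 to 23440744). Or30a, another larval receptor, had a peak of 344 bp below its lower end (2L 9111358 to 9111702).

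Or59b, an antennal receptor for acetate esters, and its neighbour Or59c, a receptor of the maxillary palp, both had CLK testis peaks. Or59b held a CLK peak of 317 bp (2R 23471207 to 23471524) that also fell within 1 kb of Or59c, and Or59c held another of 233 bp (2R 23473000 to 23473233). A CYC testis peak of 269 bp (2R 23470020 to 23470289) crossed the lower end of Or59b and lay 918 bp from the CLK peak of that gene. The midpoints of all 3 peaks lay within the annotated gene CG43795 as well. Or49a, a receptor for odours of parasitoid wasps, and Or49b each had a CLK testis peak whose nearest gene end belonged to another gene, CG30048 and CG17575.

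CYC testis peaks at Or genes were found at Or74a, Or83c, Or85e and Or92a besides Or59b. The widest, of 501 bp, crossed the lower end of Or74a, a larval receptor (3L 17327331 to 17327832). Or85e, a receptor of the maxillary palp, had 2 peaks below its lower end (3R 8633189 to 8633501 and 8634075 to 8634281). Or83c, a farnesol receptor, held 1 of 211 bp inside the gene. At Or92a, an antennal receptor for diacetyl, a CYC testis peak of 233 bp (3R 20506807 to 20507040) and a CYC ovary peak of 221 bp (3R 20506781 to 20507002) shared 195 bp. The nearest gene end to both was that of MFS9, not Or92a. The other Or gene with a CYC ovary peak was Or47a, with 223 bp just above the gene (2R 11251984 to 11252207). The midpoint of this peak lay inside another gene, Cpr47Ea. Of the 7 receptor genes of the maxillary palp fixed as a list, 2 had a peak in any list, Or59c and Or85e, beside 38.9% of all genes. Or33c, Or42a, Or46a, Or71a and Or85d had none.

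**Figure D4:**
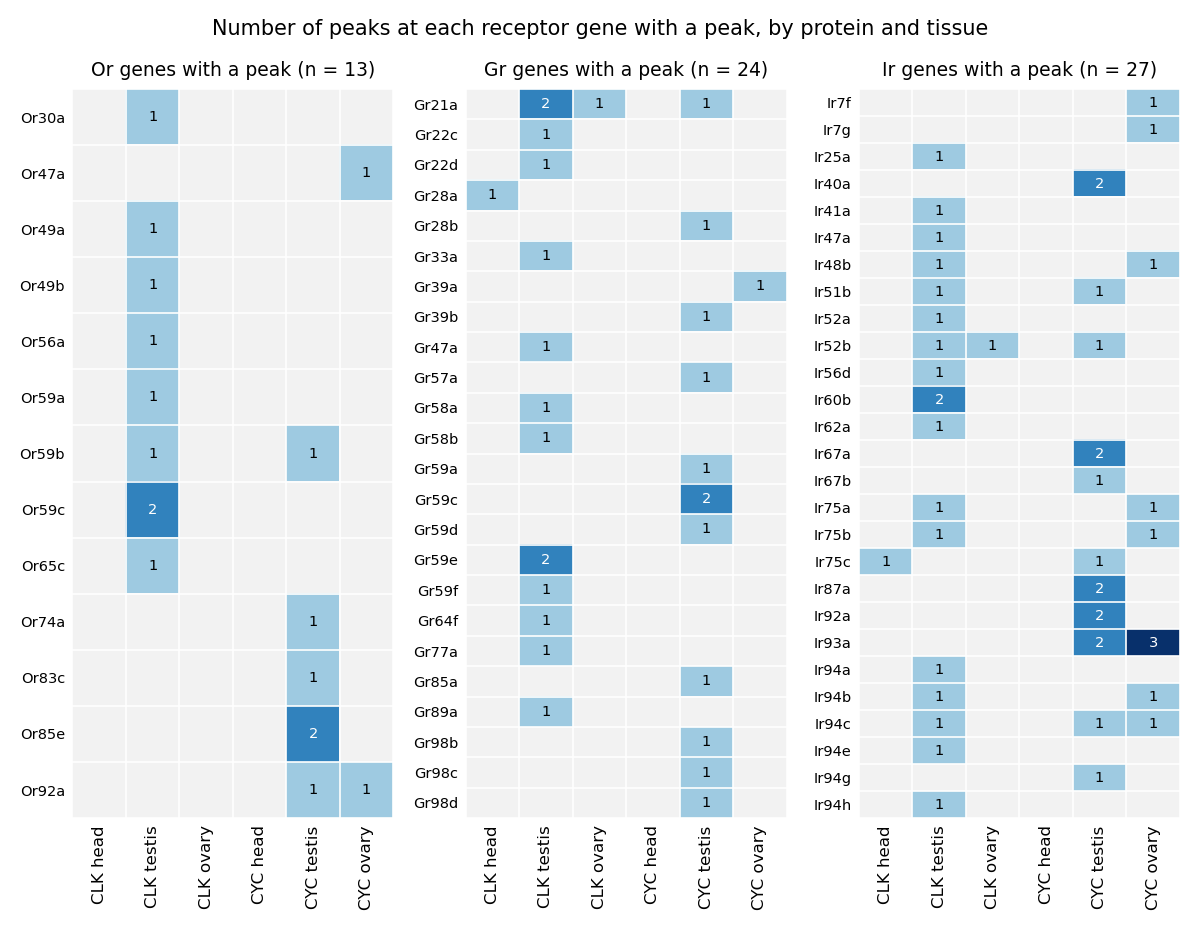
Number of peaks at each of the 64 receptor genes that had any, for each protein and tissue, in 3 panels for Or (13), Gr (24) and Ir (27) genes; darker cells hold more peaks. Most filled cells are in the CLK testis and CYC testis columns, and the CYC head column is empty.

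Among Gr genes, 24 of 60 had a peak (40.0%, beside 38.9% of all genes), and Gr21a was called in the most lists. Gr21a encodes, with Gr63a, the carbon dioxide receptor of the antenna. Its CLK testis peaks lay at either end of the gene, 397 bp wide at the lower end (2L 780190 to 780587) and 267 bp above the upper end (2L 783242 to 783509). The CLK ovary peak of 395 bp (2L 783205 to 783600) covered the whole of the upper testis peak. A CYC testis peak of 388 bp lay inside the gene (2L 781135 to 781523), 548 bp from the lower CLK peak, and met no CLK peak. Gr63a had no peak in any list.

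Of the 9 sugar receptor genes, 1 had a peak in any list, beside 38.9% of all genes. Gr64f, a co-receptor of sugar-sensing neurons, held a CLK testis peak of 207 bp (3L 4037165 to 4037372), whose nearest gene end was that of CG11593. Gr5a, Gr43a, Gr61a and the other 5 genes of the Gr64 cluster had none. Of the 4 genes common to bitter-sensing neurons, Gr33a and Gr89a had CLK testis peaks, beside 17.8% of all genes, and Gr32a and Gr66a had none. The peak at Gr33a was 338 bp wide and 871 bp from the lower end of the gene (2L 12136968 to 12137306). The peak in Gr89a was 199 bp wide (3R 16498193 to 16498392), the lowest width in the list. Gr39a, which is linked to pheromone sensing in courtship, held a CYC ovary peak (2L 21296058 to 21296304), at a point where the annotated gene Mondo lies as well.

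Over the 9 pheromone receptors fixed as a list, Or65c and Gr39a were the members with a peak, beside 38.9% of all genes, and Or67d, Or47b, Or88a, Or23a and Gr68a had none.

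Several other Gr genes with testis peaks lay in small clusters, where a peak could fall near 2 members. Outside clusters, Gr47a and Gr77a had a CLK testis peak, and Gr39b, Gr57a and Gr85a a CYC testis peak. A CLK peak in Gr22d (2L 1789594 to 1789881) was also within 1 kb of Gr22c. A CLK peak in Gr58a (2R 21980544 to 21980744) counted for Gr58b, and a CLK peak in Gr59e (2R 23541984 to 23542213) counted for Gr59f. Gr59c, a bitter receptor gene, held the widest CYC testis peak at a Gr gene, at 450 bp (2R 23102895 to 23103345), which counted for Gr59d as well. At the Gr98 cluster, CYC testis peaks lay below Gr98b (3R 27541754 to 27542017), which takes part in sensing L-canavanine, and inside Gr98c (3R 27545314 to 27545581), the last within 1 kb of Gr98d. Gr28b, whose products include a warmth receptor, held a CYC testis peak of 251 bp (2L 7458341 to 7458592).

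Of the 60 Ir genes, 27 (45.0%) were called in at least 1 list and 9 (15.0%) in at least 2, beside 38.9% and 11.2% of all genes. Of the 3 co-receptors, Ir25a held a CLK testis peak of 215 bp (2L 4831906 to 4832121), and Ir8a and Ir76b had no peak. Of the 5 genes fixed as temperature and humidity receptors, 3 had a CYC testis peak (Gr28b, Ir40a and Ir93a) and none a CLK peak in any tissue, beside 10.1% (CYC) and 17.8% (CLK) of all genes in testis. With 5 genes at that CLK share, a count of 0 lies near the background. The 3 called genes are long, at 7422, 24851 and 8237 bp, a length class in which 14.4% of all genes had a CYC testis peak. Ir40a, which serves the sensing of dry air, held 2, at 2L 22199161 to 22199504 and 22213059 to 22213353, in a gene of 24851 bp. Ir93a, a co-receptor in temperature and humidity sensing, had the most peaks of any member. It held 2 CYC peaks of testis, 307 and 261 bp wide, and 3 of ovary, 254, 452 and 428 bp wide. The testis peak at 3R 20855937 to 20856244 and the ovary peak at 20855645 to 20856097 shared 160 bp, and the other 3 met no other peak.

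Ir52b, a taste receptor gene in a cluster of 4, was the only member where peaks of 3 lists met at the same site. The CLK testis peak of 409 bp (2R 15502626 to 15503035) shared 315 bp with the CLK ovary peak of 320 bp (2R 15502720 to 15503040). The CYC testis peak of 233 bp (2R 15502737 to 15502970) lay within both. Midpoints lay 23 to 49.5 bp apart, near the middle of the gene and 730 to 779.5 bp from its nearer end. Its neighbour Ir52a had a CLK testis peak below its lower end (2R 15499120 to 15499482), and Ir52c and Ir52d, also taste receptors, had none.

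In the Ir75 cluster, which encodes antennal receptors for carboxylic acids, the peaks were spread over 4 lists. The CLK testis peak in Ir75a (3L 17817155 to 17817356, 201 bp) lay whole within the CYC ovary peak (3L 17817138 to 17817359, 221 bp), and both fell within 1 kb of Ir75b. Ir75c held a CYC testis peak of 310 bp (3L 17821314 to 17821624), 1473 bp from the CLK head peak above the gene. In the Ir94 cluster, Ir94c held a CLK testis peak (3R 22119141 to 22119412) and a CYC testis peak (3R 22118905 to 22119241) that shared 100 bp. A CYC ovary peak lay 977 bp from the CYC testis peak in the same gene (3R 22117700 to 22117928) and counted for Ir94b, which held a separate CLK testis peak (3R 22115790 to 22116014).

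**Figure D5:**
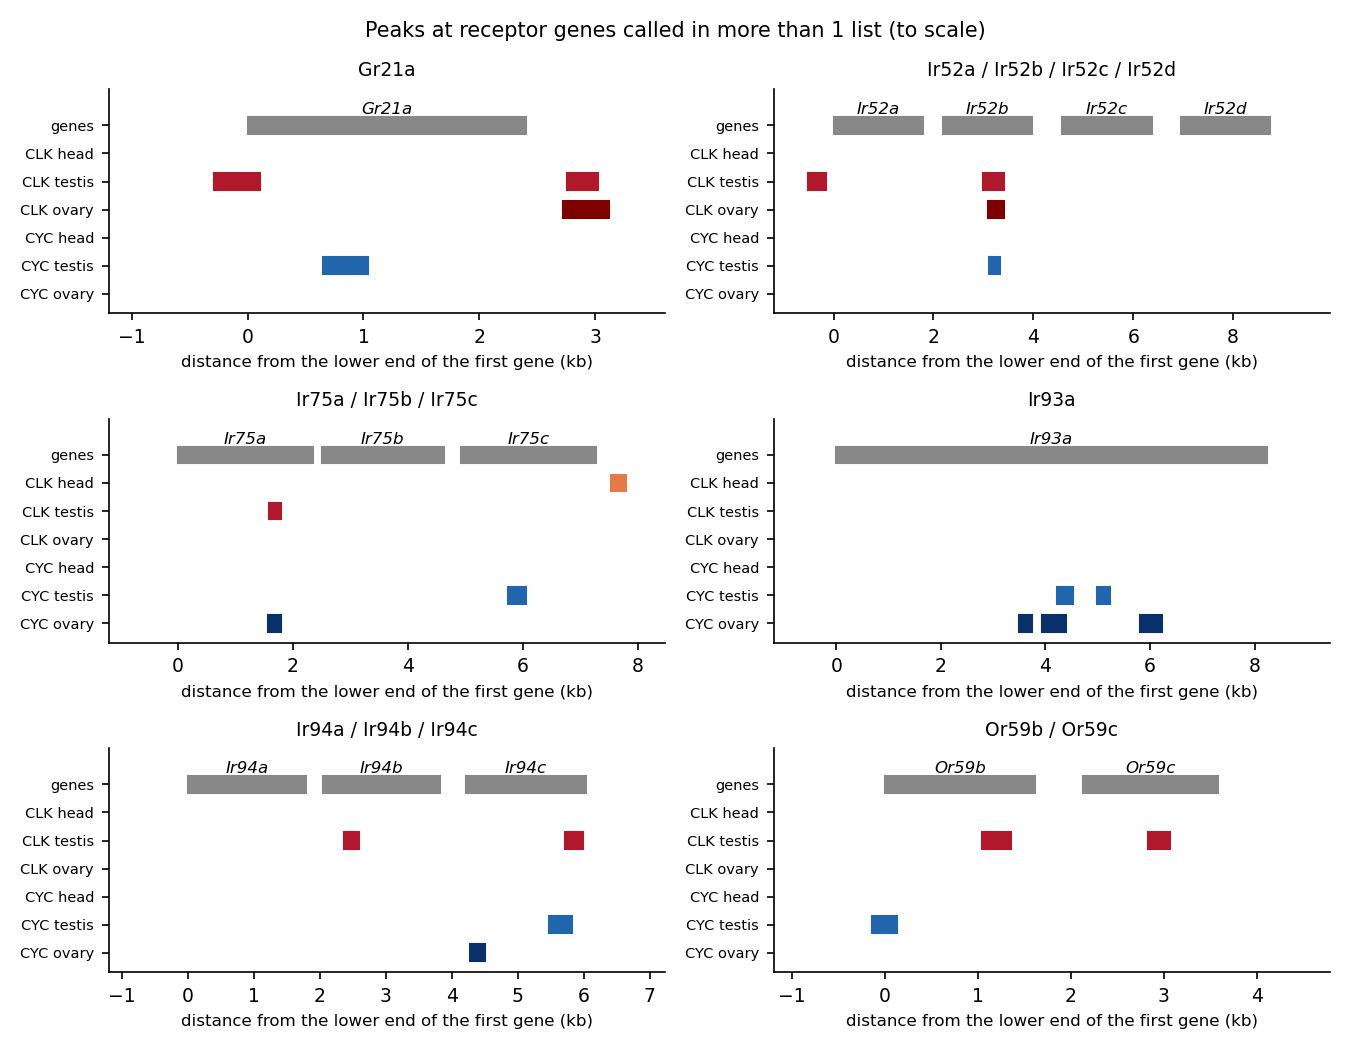
Peaks of the 6 lists at 6 receptor loci, drawn to scale; gray boxes are the annotated genes and colored boxes the peaks, against the distance in kb from the lower end of the first gene. Peaks of 3 lists lie on top of each other in Ir52b, whereas those in Or59b and most of those in Ir93a stand apart.

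Of the 10 further antennal Ir genes fixed as a list, 5 had a peak, namely Ir75a, Ir75b, Ir75c, Ir41a and Ir92a, beside 38.9% of all genes with a peak in at least 1 list. Ir75a and Ir75b were counted from the same peaks. Further Ir genes with wide testis peaks were Ir41a, Ir48b and Ir67a. Ir41a, a receptor for polyamines and at 104437 bp the longest member, held 1 CLK peak of 414 bp (2R 4918781 to 4919195), near its lower end. Ir48b held a CLK testis peak of 412 bp (2R 11701393 to 11701805), and a CYC ovary peak of 334 bp lay 721 bp away, just above the gene. Ir67a held a CYC testis peak of 484 bp (3L 9542833 to 9543317) and had another of 324 bp above its upper end. Ir92a, a receptor for ammonia and amines, and Ir87a each held 2 CYC testis peaks and no CLK peak. Of the 14 genes fixed as taste receptors of this family, 6 had a CLK testis peak, beside 17.8% of all genes. Besides Ir52a, Ir52b and Ir47a these were Ir56d, a receptor in the taste of fatty acids, Ir62a, which serves the taste of calcium, and Ir94e. Ir60b, which serves the taste of sucrose in the pharynx, had 2 CLK testis peaks (2R 24516561 to 24516784 and 24518085 to 24518432). On X, a CYC ovary peak of 216 bp between Ir7f and Ir7g (X 7884190 to 7884406) was the only peak at a member.

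Peaks in 2 or more lists were found at 12 members (6.70%), beside 11.2% of all genes, and in 3 at Gr21a, Ir52b and Ir94c (1.68%), beside 3.09%. Where both proteins were called in testis, their peaks met at Ir52b and Ir94c and lay 479 to 918 bp apart, at the closest, at Gr21a, Ir51b and Or59b. Of the 35 CLK testis peaks at members, 2 (5.71%) met a CYC testis peak, beside 222 of 2491 in the whole list (8.91%). Counted from the CYC side, 2 of 32 (6.25%) met a CLK peak, beside 226 of 1583 (14.3%). Both CLK ovary peaks at members met a CLK testis peak, beside 74 of 351 in the whole list. Of the 10 CYC ovary peaks at members, 2 (20.0%) met a CYC testis peak, beside 202 of 1975 (10.2%).

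In testis, 24 of 35 CLK peaks at members (68.6%) and 21 of 32 CYC peaks (65.6%) had their midpoint inside the member. Inside any protein-coding gene lay 77.1% and 68.8% of these peaks, beside 92.0% and 90.0% of all testis peaks in or within 1 kb of a gene. This lower share at members is not matched for gene length. The bodies of members took up 0.467 of the 0.750 Mb of their windows, and those of all genes 89.9 of 98.7 Mb. Counted by gene with the midpoint inside the gene, 24 members (13.4%) had a CLK and 17 (9.50%) a CYC testis peak, beside 12.9% and 7.35% of all genes. In ovary the counts were 1 for CLK and 4 for CYC, beside 1.24% and 6.96% of all genes, and in head both were 0, beside 5.23% and 2.05%. Of the 24 CLK testis peaks inside members, 14 had their midpoint in the middle part when genes were cut into 3 equal lengths, as had 14 of 21 for CYC (58.3% and 66.7%). Over all protein-coding genes these shares were 38.3% and 38.6%, and over those of 1 to 3 kb they were 48.4% and 47.0%. Midpoints inside members lay a median of 590.5 bp (CLK) and 847 bp (CYC) from the nearer end. Strand, exons and sequence were not used here, so starts were not told from ends, nor exons from introns.

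Some of these sites are shared with other genes. Of the 35 CLK testis peaks, 9 had their midpoint inside a gene that is no member and 4 lay nearer the end of such a gene than that of a member. For CYC in testis 2 and 3 of 32 did so. At Gr47a, a bitter receptor gene, and Ir47a the CLK testis peaks lay in SLO2, a potassium channel gene in which both receptor genes lie. At Ir51b, both a CLK and a CYC testis peak lay in row. The median width of member peaks was 277 bp for CLK and 268 bp for CYC in testis, beside 275 and 272 bp in the whole lists. In ovary the 10 CYC peaks at members had a median of 237 bp, beside 312 bp in the whole list.

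Other genes of the chemosensory pathway were compared from fixed lists. In a list of 10 such genes, 6 had a peak in any list, beside 38.9% of all genes, and Orco, Snmp2, ppk25 and acj6 had none. Eip93F, an ecdysone-induced factor that acts in olfactory neurons, was the only gene of these lists with peaks of both proteins in head. Its CLK peak of 227 bp (3R 21948795 to 21949022) lay within its CYC peak of 462 bp (3R 21948764 to 21949226), at the lower end of the gene. Eip93F spans 65426 bp. In head, 9.07% of all genes had a CLK and 4.13% a CYC peak, and 116 of all 394 CYC peaks met a CLK peak. Snmp1, a membrane protein needed for pheromone reception, had a CLK testis peak (3R 21164344 to 21164668). The ammonium transporter gene Amt and the channel gene ppk29 had a CYC testis peak each, and ppk23 a CYC ovary peak. pdm3, a POU-domain factor of olfactory neurons, held 2 CLK and 1 CYC testis peaks in a gene of 68791 bp.

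Odorant-binding proteins carry ligands through the fluid around olfactory and taste neurons. Of their 51 genes, 1 had a CLK peak in head, 6 in testis and 4 in ovary, and 0, 2 and 5 had a CYC peak. The shares of all genes in the same order were 9.07, 17.8 and 1.73% for CLK and 4.13, 10.1 and 11.1% for CYC. A CLK testis peak counted for Obp50a, Obp50b and Obp50c together, a CLK ovary peak for Obp56a, Obp56b and Obp56c, and a CYC ovary peak for Obp56b and Obp56c. Obp99b had the head peak, of 507 bp (3R 29716935 to 29717442). At Obp49a, CLK and CYC peaks of testis met below the gene (2R 12689768 to 12690030 and 12689647 to 12689923). Obp73a held 4 CYC ovary peaks, up to 1944 bp wide. At Obp47b the CLK ovary peak (2R 11301170 to 11301389) lay within the CYC ovary peak (2R 11301099 to 11301518). Of 20 CheA and CheB genes, CheA87a had a CLK testis peak and CheB42c a CYC ovary peak of 1800 bp, beside 17.8% and 11.1% of all genes.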

How the data were processed

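ChIP-seq with an antibody against GFP was done in 12 groups of 2 libraries (GFP and input for CLK and CYC in head, testis and ovary), after shearing to 100 to 500 bp, with 5% kept as input, per the labels' protocols. The submitters' processing notes name the build dm6 and the tools MACS2, Bowtie2, fastp, SAMtools, Picard, deepTools and ChIPseeker, without roles. Sources used here do not state the peak threshold or how replicates were merged, both of which set which sites are listed. The authors deposited 6 lists that hold 3 columns, chromosome, start and end, and no height, fold, p or q. Positions are printed as in the lists, whose starts may count from 0 or 1. Tissues were matched by the initial in each list name.

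Gene spans came from the NCBI RefSeq table of Release 6 plus ISO1 MT (dm6), which gives no strand. Peaks were assigned with Python 3.11.15 and pandas 2.3.3, and the assignment was tested on simulated peaks. Intervals are exact 95% binomial (SciPy 1.17.1); a count of 0 allows 3 genes. Peaks met where they had at least 1 bp in common. No test was run. Named genes were members called in 2 or more lists, the 5 with the widest peak per list, those of fixed functional lists and those in clusters (gaps under 5 kb); other members named were chosen after their values were seen. Members and lists were chosen with earlier results of these data known. The planned search for E-box letters and the naming of genes by promoter needed sequence and strand and were not run. Alternatives changed the window, the assignment, the overlap, the width and the regions used.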

Additional observations from a re-analysis of the deposited data

How the results depend on the processing

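Under all 8 planned settings of window, assignment, overlap and peak choice, the share of members with a peak stayed above that of all genes for CLK and CYC in testis. It stayed below for CLK and CYC in head and for CYC in ovary. None of these settings matched genes by length. By length class, the share of members lay above for CYC in ovary at 2 to 3 kb and below for CLK in testis at 3 kb or longer. For CLK in ovary it lay below in 4 settings and above with 3 kb (3.91%, beside 2.86%), with either gene end (1.12%, beside 0.876%), with the nearest end (3.35%, beside 1.89%) and in the widest 50% of peaks (1.12%, beside 0.919%).
The counts themselves moved by over 1.5 times in several settings, and they are given here for CLK in head, testis and ovary and then for CYC in head, testis and ovary. Within 3 kb, members numbered 6, 59, 7, 1, 41 and 23 (Or 2, 17, 1, 0, 9 and 5, Gr 2, 19, 1, 0, 14 and 3, Ir 2, 23, 5, 1, 18 and 15) and peaks 7, 48, 5, 1, 37 and 23. With midpoints inside the gene, members numbered 0, 24, 1, 0, 17 and 4 (Or 0, 5, 0, 0, 1 and 0, Gr 0, 7, 0, 0, 6 and 1, Ir 0, 12, 1, 0, 10 and 3) and peaks 0, 24, 1, 0, 21 and 6. In the widest 50% of peaks, members numbered 0, 21, 2, 0, 13 and 2 (Or 0, 7, 0, 0, 2 and 0, Gr 0, 5, 1, 0, 5 and 0, Ir 0, 9, 1, 0, 6 and 2) and peaks 0, 19, 2, 0, 15 and 3. With each peak given to the gene that holds it or has the nearest end, at any distance, members numbered 4, 37, 6, 1, 27 and 13 (Or 3, 11, 1, 1, 7 and 4, Ir 0, 15, 4, 0, 12 and 8) and peaks 8, 47, 6, 2, 35 and 35. Within 500 bp, 1 member and 1 peak were left for CLK in ovary (Gr 0), with 6 Gr genes for CYC in testis and 1 Or gene for CYC in ovary. Counting any 1 bp of a peak gave 1 Or gene for CLK in head and 2 Ir genes for CLK in ovary. Within 1 kb of either gene end, CYC in ovary had 0 Gr genes and 6 peaks.
Counts stayed within 1.5 times without regions called in 4 or more lists, with Orco added, and without X, which was chosen after seeing the data. No paired analysis was possible because each protein and tissue had only 1 list, and no replicate could be left out. Read depth was unknown, so a member without a peak is not shown to be unbound.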
